A study of Arabidopsis thaliana with 9 samples.

Results

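The mitochondrial genome of Arabidopsis was read on these arrays by 23 probe sets, of 22746 that were not array controls. A probe set, the group of short probes that Affymetrix prints for 1 transcript, was taken where its only annotated gene is a gene of the mitochondrial chromosome. The 23 probe sets belong to 16 genes, and the gene table used here lists 32 protein genes of that chromosome. A further 12 probe sets name a mitochondrial gene together with another gene, mostly a locus of the nuclear chromosome 2, and were kept apart.

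The arrays came from 3 groups of 3, all sampled after 4 h of treatment from inflorescences lacking flowers past stage 12. The RGA-GR Dex group carried the mutations ga1-3, rga and rgl2 and the transgene RGA-GR, and received dexamethasone (Dex). The RGA-GR mock group had the same genotype and a mock treatment. The nontransgenic Dex group carried ga1-3 rga rgl2 with no transgene and received Dex. All groups therefore shared the gibberellin-deficient ga1-3 background and the loss of both RGA and RGL2, which are DELLA repressors of gibberellin responses. In RGA-GR, RGA is fused to a glucocorticoid receptor, so that the steroid sets the fusion protein's activity. The promoter of the transgene and the number of lines behind it are not given in the sources used here, and a mock-treated nontransgenic group was not analysed here. The labels call the replicates biologically independent.

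Plant mitochondria keep a small genome whose protein genes serve mainly the respiratory chain, the maturation of cytochrome c and the mitochondrial ribosome. Most subunits of the same complexes are encoded in the nucleus and imported. Plant mitochondrial transcripts undergo C-to-U editing and splicing of group II introns, and those of nad1, nad2 and nad5 are joined by trans-splicing from separately transcribed pieces. Their mRNAs usually lack a stable poly-A tail, and adenylation there promotes decay. In flowers, mitochondria are especially numerous in the tapetum and in pollen.

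The deposited values are linear ratios, in which each probe set was scaled across the 9 arrays: the median of a probe set was exactly 1 for 15 of the 23 and lay below 1 for the other 8. Such ratios compare arrays for 1 probe set and say nothing of whether one gene is more abundant than another, so the presence of tissue markers could not be checked on this scale. In whole inflorescences, moreover, fewer cells of a type and less RNA per cell cannot be told apart. Complex I (NADH dehydrogenase) accounted for 15 of the 23 probe sets, from 8 genes: nad1 with 7 probe sets, nad5 with 2, and nad2, nad4, nad4L, nad6, nad7 and nad9. Complex IV (cytochrome c oxidase) was represented by cox1 and cox2. Cytochrome c maturation, the attachment of haem to the protein, was represented by ccb206 (ccmB), ccb203 and ccb382 (the 2 parts of ccmFN) and ccb452 (ccmFC). The remaining members were orfX, a subunit of a twin-arginine protein translocase, and matR, a maturase that acts in intron splicing and is itself encoded within an intron of nad1. Of the 23, 5 carry the suffix _s_at, by which the maker marks probes shared between transcripts, so signal from near-identical copies cannot be separated there. The 8 with a median ratio below 1 were ccb203 (0.879), matR (0.5), nad7 (0.486), nad2 (0.101) and 4 of nad1. Those of nad1 were 257322_at (0.563), 257323_at (0.886), 257327_at (0.564) and 257329_at (0.214).

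The 9 arrays fell into 2 kinds by a measurement that has nothing to do with the plants. The labelling controls that are added as poly-A spike-in RNA had a median log2 ratio over 24 probe sets of -3.73 and -3.23 in RGA-GR Dex replicates 1 and 2 and -3.52 and -3.28 in RGA-GR mock replicates 1 and 2. The same median was 0.37 in RGA-GR Dex replicate 3, 0 in RGA-GR mock replicate 3, and 0.88, 0.93 and 1.25 in the nontransgenic Dex arrays. The 4 arrays with low values are called here the arrays without spike-in signal, and the other 5 the arrays with it. The labels do not name this split, which was read from the files. All nontransgenic arrays were of the second kind, so a fit over all 9 arrays sets 2 RGA-GR arrays of the first kind and 1 of the second against nontransgenic arrays of the second kind alone.

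Within the RGA-GR line, mitochondrion-encoded probe sets differed along this split, which there coincides with the replicate number. Their median log2 ratio was -0.74, -0.05 and 0.73 in the RGA-GR Dex arrays, -1.10, -0.18 and 0.39 in the RGA-GR mock arrays and 0, -0.59 and -0.28 in the nontransgenic Dex arrays. Replicate 3 was thus the highest array of both transgenic groups and lay above all nontransgenic arrays, while replicate 1 was the lowest of both and replicate 2 lay between. The nontransgenic arrays, all with spike-in signal, did not follow the split. Their replicates 2 and 3 lay below both RGA-GR arrays of replicate 2, which are without it. Over all probe sets the medians stayed between -0.29 and -0.07. Within the RGA-GR line, replicate 3 minus replicates 1 and 2 had a median of 1.18 over the 23 probe sets, with a range of -2.59 to 3.68, and was positive in 19 of them. Over all probe sets the share was 53.2%. In 14 of the 23, both replicate 3 arrays lay above all 4 of the other RGA-GR arrays, against 12.4% of all probe sets, and in 0 of the 23 did both lie below, against 10.4%.

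**Figure D1:**
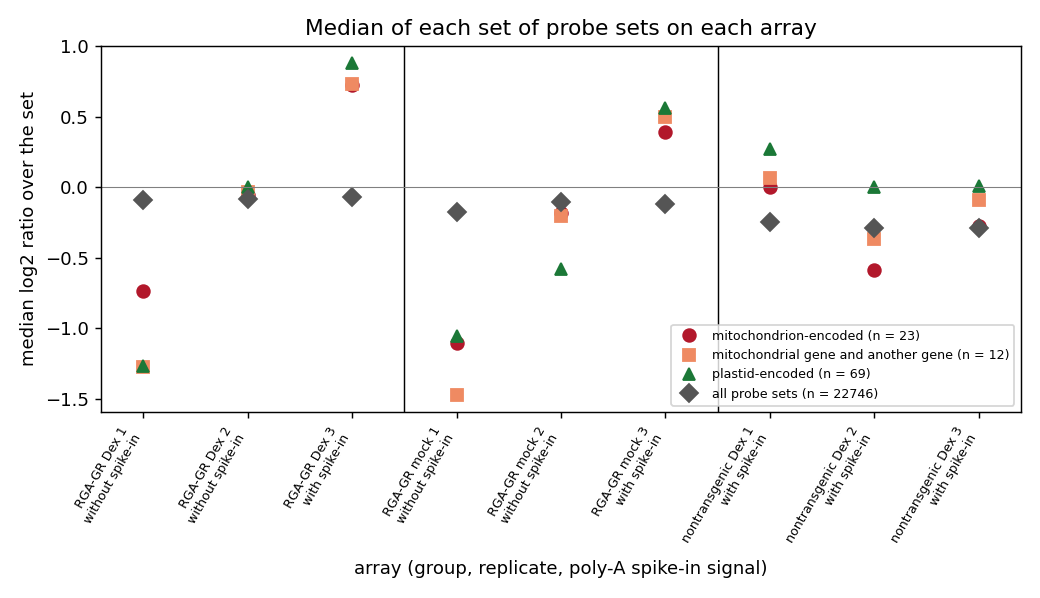
Median log2 ratio on each array (vertical axis) of the mitochondrion-encoded probe sets, the probe sets that name a mitochondrial and another gene, the plastid-encoded probe sets and all probe sets, with arrays along the horizontal axis by group and by poly-A spike-in signal. The mitochondrion-encoded median was 0.73 and 0.39 in the 2 RGA-GR arrays with spike-in signal and lay between -1.10 and -0.05 in the 4 without.

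Other organelle transcripts followed the same arrays. The 69 plastid-encoded probe sets had medians of -1.27, 0 and 0.89 in the RGA-GR Dex arrays, -1.06, -0.58 and 0.56 in the RGA-GR mock arrays and 0.28, 0 and 0.01 in the nontransgenic Dex arrays. Both replicate 3 arrays of the RGA-GR line lay above the 4 others in 46 of these 69. The 12 probe sets with a mitochondrial and another gene did so in 8 of 12. Differences between 3′ and 5′ control probe sets were also highest in replicate 3 of each transgenic group. That likeness did not extend to the nontransgenic arrays, where these differences were positive while the mitochondrion-encoded medians were 0, -0.59 and -0.28. The difference between the 3′ and 5′ probe sets of actin, on the log2 scale, was -0.23, -0.47 and 0.17 in the RGA-GR Dex arrays, -0.71, -0.25 and 0.49 in the RGA-GR mock arrays and 0.23, 0.05 and 0.40 in the nontransgenic Dex arrays. That of ubiquitin was -0.19, -0.23 and 0.38 in the RGA-GR Dex arrays, -0.63, -0.36 and 0.43 in the RGA-GR mock arrays and 0.01, 0.11 and 0.33 in the nontransgenic Dex arrays. For GAPDH the difference was -0.03, 0.15 and 0.50 in the RGA-GR Dex arrays, -0.27, -0.03 and 0.66 in the RGA-GR mock arrays and 0.52, 0.37 and 0.62 in the nontransgenic Dex arrays. The 25S ribosomal RNA control took another course, with log2 ratios of 3.29, 4.71 and 2.93 in the RGA-GR Dex arrays, 0, 4.15 and -1.01 in the RGA-GR mock arrays and -3.58, -4.02 and -4.12 in the nontransgenic Dex arrays. The part of these differences in the organelle values was not tested.

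**Figure D2:**
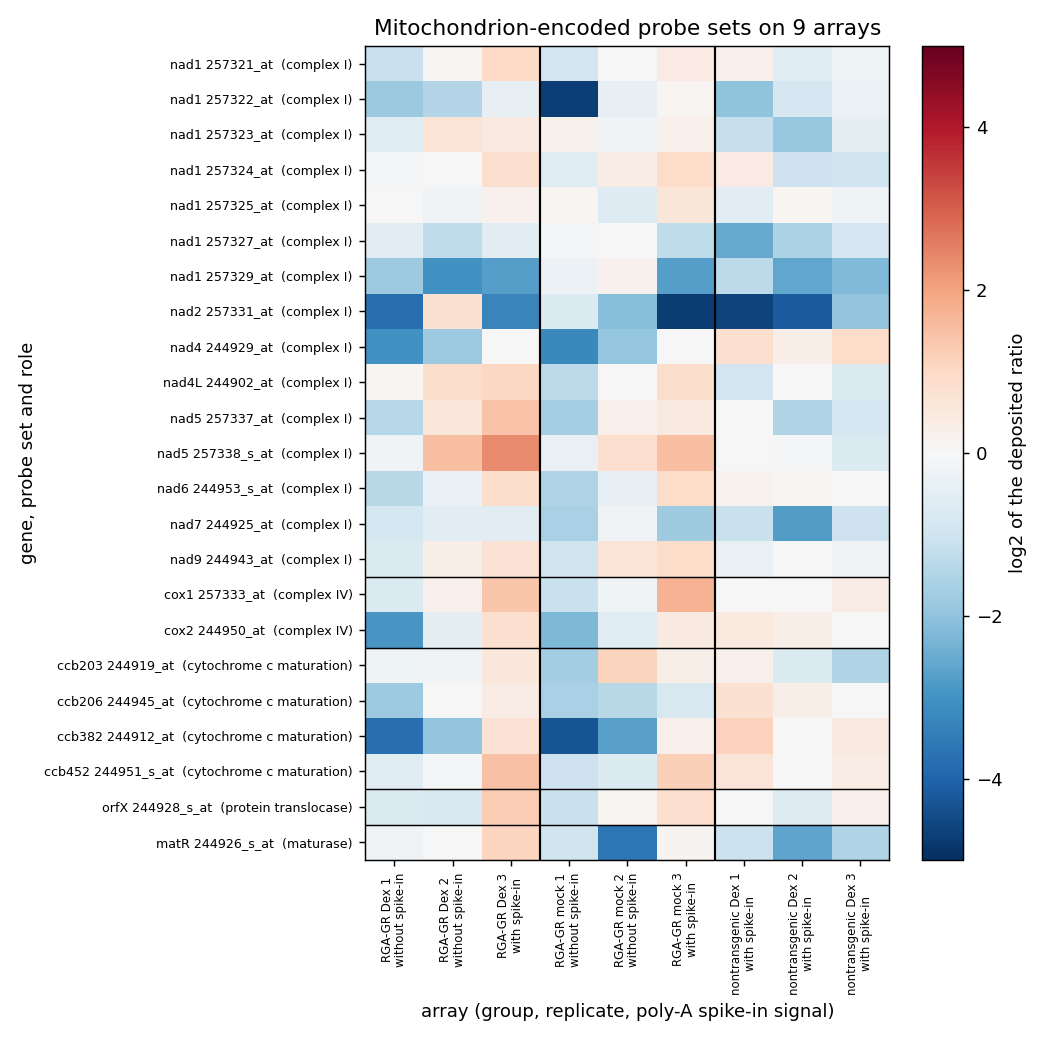
log2 of the deposited ratio (colour) of each of the 23 mitochondrion-encoded probe sets, ordered by role down the page, on the 9 arrays by group and spike-in signal. Most probe sets are lighter or redder in RGA-GR Dex replicate 3 and RGA-GR mock replicate 3 than in the other RGA-GR arrays, and 19 of 23 had a positive difference between those 2 kinds of array.

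The probe sets also varied more within groups than the rest of the array. That spread includes the differences between RGA-GR replicates given above, so it is not a measure of probe noise alone. The residual SD of log2 ratios within groups had a median of 0.950 over the members, with a range of 0.425 to 2.04, against 0.423 over all probe sets, and it exceeded that median over all probe sets in 23 of 23. For RGA-GR Dex against nontransgenic Dex the median SE of a difference was 0.631 among the members and 0.311 among all probe sets. Differences were tested with limma on the log2 ratios of all 22746 probe sets in all 9 arrays, with Benjamini-Hochberg adjustment over all of them and a threshold of 0.05, and every difference and SE below comes from that fit with 3 arrays per group.

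Inside the RGA-GR line, Dex and mock treatment differ by the activation of RGA-GR and also by the steroid itself. Without a mock-treated nontransgenic group these cannot be told apart. Of the 23 members, 0 passed the adjusted threshold in limma, as did 0% of all probe sets. Without adjustment, p was under 0.05 for 0 members and for 1791 of all probe sets (7.87%). The lowest adjusted p among the members was 0.657. The median difference over the members was 0.16, against 0.07 over all probe sets, and the mean was higher with Dex in 17 of 23. Single arrays turned that median: it was -0.15 without RGA-GR Dex replicate 3 and -0.21 without RGA-GR mock replicate 1, against 0.71 without RGA-GR Dex replicate 1 and 0.55 without RGA-GR mock replicate 3. The groups overlapped in every one of the 23 members, whereas they did not in 6.69% of all probe sets, where Dex was wholly higher, and in 4.3%, where it was wholly lower. Taking arrays of the same replicate number, the median of Dex minus mock over the members was 0.26, 0.12 and 0.29. In 6 of the 23 all 3 differences were positive, against 22.1% of all probe sets. Replicate number was not a term in the main fit. Over all probe sets, deviations of same-numbered RGA-GR Dex and RGA-GR mock arrays correlated at 0.161, 0.0738 and 0.190. Those of differently numbered arrays correlated at -0.146 to -0.0193. Over the members the former were 0.31, 0.0929 and 0.861 and the latter -0.732 to 0.46. With replicate number as a block within that line, 0 members passed here, against 4 of all 22746 probe sets. Against nontransgenic Dex, 6 members passed for RGA-GR Dex and 5 for RGA-GR mock, beside 6235 and 4542 of all 22746 probe sets. That block leaves the differences between RGA-GR replicates out of the spread, so the p-values against nontransgenic Dex are too small.

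Set against nontransgenic plants under the same steroid, RGA-GR Dex differs by the presence of the transgene as well as by its activity. A single member passed, the nad1 probe set 257323_at, which was higher in RGA-GR Dex. Among all probe sets 18.7% passed, 12.1% higher and 6.65% lower. An unadjusted p under 0.05 was reached by 5 of the 23 members and 32.2% of all probe sets. The member differences ranged from -2.32 to 2.04 with a median of 0.25, against a median of 0.14 over all probe sets. The mean was higher in RGA-GR Dex in 15 of the 23. Without RGA-GR Dex replicate 3 the members' median was -0.02, and without replicate 1 it was 0.71. The groups did not overlap in 4 members: nad4L, nad7 and matR lay wholly above, against 23.6% of all probe sets, and nad4 wholly below, against 14.5%. When each array's own median was subtracted first, the median over all probe sets became -0.05 and that of the members 0.06.

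The mock-treated RGA-GR arrays differ from the nontransgenic Dex arrays in both transgene and treatment. Here 0 of 23 members passed the adjusted threshold in limma, against 10.2% of all probe sets (6.22% higher and 4.01% lower), and the lowest adjusted p of a member was 0.0765. Without adjustment 3 members and 26.3% of all probe sets had a p under 0.05. The members' median was 0.27, against 0.08 over all probe sets, and 16 of 23 means were higher in RGA-GR mock. That median was -0.11 without RGA-GR mock replicate 3, -0.05 without nontransgenic Dex replicate 2 and 0.64 without RGA-GR mock replicate 1. The groups did not overlap for nad1 257323_at, which was wholly above (19.4% of all probe sets), nor for nad4 and ccb206, which were wholly below (13.8%). These 2 comparisons with nontransgenic plants share their nontransgenic arrays.

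**Figure D3:**
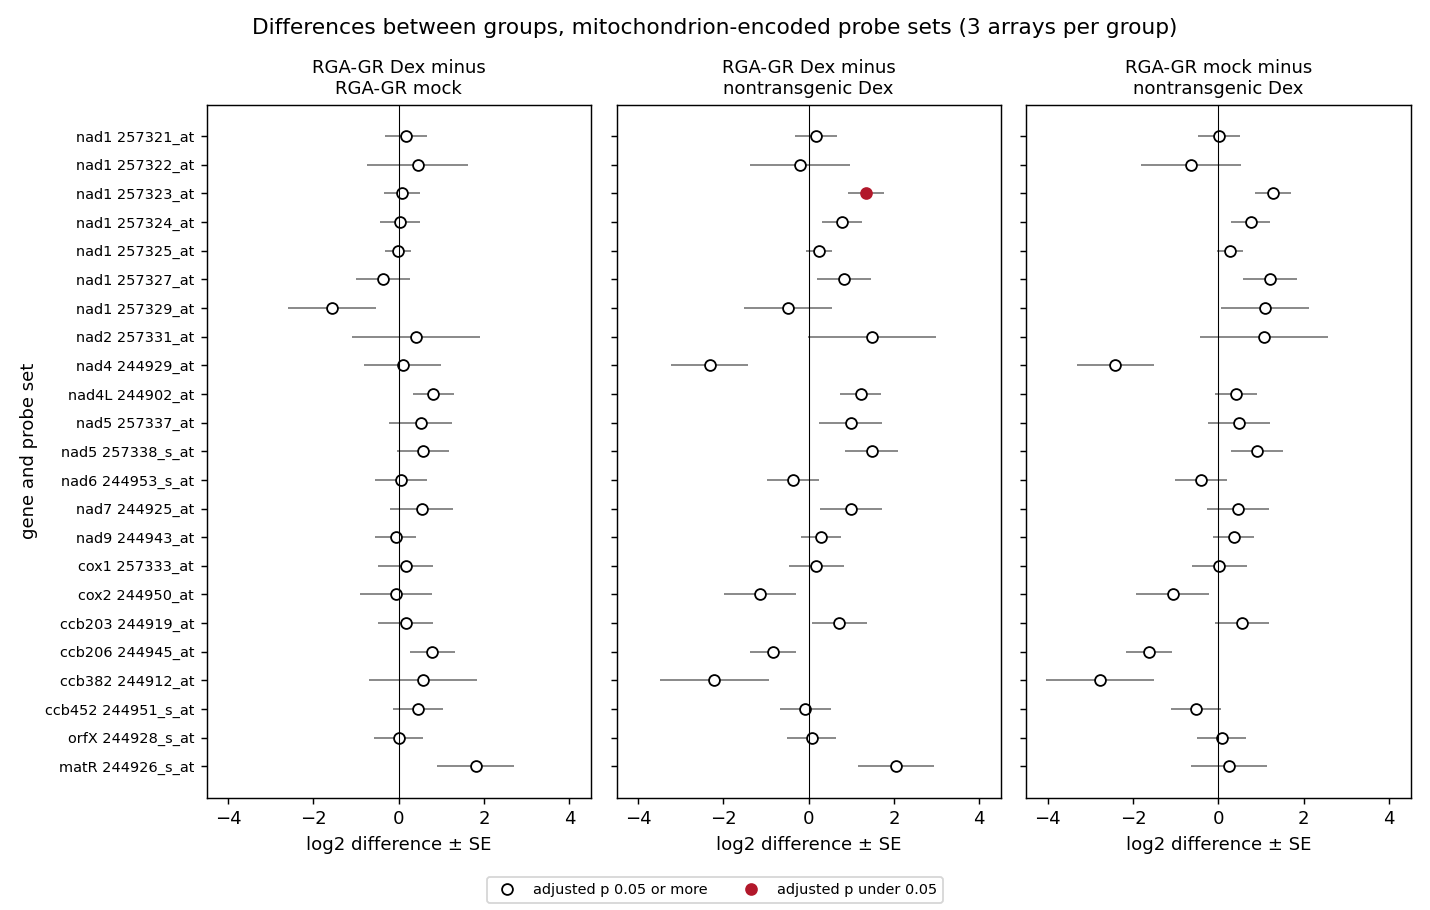
Difference in log2 ratio ± SE (horizontal axis) of each mitochondrion-encoded probe set, in 3 panels for the 3 comparisons, with 3 arrays per group and a filled point where the adjusted p was under 0.05. The filled point is nad1 257323_at in RGA-GR Dex minus nontransgenic Dex, and the SEs are wide throughout, with a median of 0.631 in that comparison.

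Among the complex I genes, nad4, a membrane subunit of the proton-pumping arm, lay furthest below the nontransgenic arrays. Its ratio was 0.122, 0.285 and 1.0 in the RGA-GR Dex arrays, 0.106, 0.265 and 1.018 in the RGA-GR mock arrays and 1.802, 1.272 and 1.888 in the nontransgenic Dex arrays. Both transgenic groups lay wholly below the nontransgenic one, and in each the array with spike-in signal was the highest. The difference was -2.32 ± 0.90 for RGA-GR Dex minus nontransgenic Dex (adjusted p = 0.0985, limma) and -2.41 ± 0.90 for RGA-GR mock minus nontransgenic Dex (adjusted p = 0.112). Between the 2 transgenic groups it was 0.09 ± 0.90. With the replicate block confined to the RGA-GR line, nad4 passed as lower in both comparisons with nontransgenic Dex (adjusted p = 0.0055 and 0.0079, limma). That block takes the differences between RGA-GR replicates out of the spread but leaves the difference from nontransgenic Dex unchanged. Its p-values against nontransgenic Dex are therefore too small, here and for the genes below. They cannot show a difference from nontransgenic plants.

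The membrane subunit nad4L went the other way. Its ratio was 1.064, 1.82 and 2.041 in the RGA-GR Dex arrays, 0.404, 0.981 and 1.853 in the RGA-GR mock arrays and 0.519, 1.0 and 0.605 in the nontransgenic Dex arrays. The RGA-GR Dex arrays were all above the nontransgenic arrays, whereas the mock arrays overlapped both groups. RGA-GR Dex minus nontransgenic Dex was 1.22 ± 0.48 (adjusted p = 0.106, limma) and RGA-GR Dex minus RGA-GR mock 0.81 ± 0.48 (adjusted p = 0.709). The former passed with the replicate block confined to the RGA-GR line (adjusted p = 0.0179, limma).

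The 2 probe sets of nad5, a membrane subunit at the far end of the same arm, gave similar orders of arrays; they were chosen for description after their values were seen. Probe set 257338_s_at had ratios of 0.891, 2.848 and 5.109 in the RGA-GR Dex arrays, 0.765, 1.811 and 2.834 in the RGA-GR mock arrays and 1.0, 0.964 and 0.625 in the nontransgenic Dex arrays. Replicates 2 and 3 of both transgenic groups were above the nontransgenic arrays, and replicate 1 was not. The difference of RGA-GR Dex from nontransgenic Dex was 1.48 ± 0.61 (adjusted p = 0.120, limma), and that of probe set 257337_at was 0.99 ± 0.73 (adjusted p = 0.394). With the replicate block confined to the RGA-GR line, 257338_s_at passed (adjusted p = 0.0026, limma).

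For nad7, a subunit of the arm that faces the matrix, the RGA-GR Dex arrays had ratios of 0.54, 0.698 and 0.683, the RGA-GR mock arrays 0.326, 0.88 and 0.294 and the nontransgenic Dex arrays 0.459, 0.145 and 0.486. The RGA-GR Dex arrays lay just above the nontransgenic ones, and the mock arrays overlapped both. The difference of 0.998 ± 0.73 did not pass (adjusted p = 0.387, limma). The subunits nad9 and nad6 gave 0.29 ± 0.48 and -0.36 ± 0.61 in the same comparison, with overlapping groups. For nad2 the ratio varied over more than the groups: 0.0737, 1.683 and 0.101 in the RGA-GR Dex arrays, 0.629, 0.23 and 0.0368 in the RGA-GR mock arrays and 0.0403, 0.0553 and 0.255 in the nontransgenic Dex arrays. A single Dex array stood far above the rest, and the difference of RGA-GR Dex from nontransgenic Dex was 1.49 (adjusted p = 0.546, limma).

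The 7 probe sets of nad1, a membrane subunit whose mRNA is assembled from separate precursors, did not move alike. Probe set 257323_at had ratios of 0.649, 1.623 and 1.365 in the RGA-GR Dex arrays, 1.159, 0.886 and 1.183 in the RGA-GR mock arrays and 0.452, 0.266 and 0.715 in the nontransgenic Dex arrays. The mock arrays were wholly above the nontransgenic ones, and of the Dex arrays replicate 1 lay below the highest nontransgenic array. RGA-GR Dex minus nontransgenic Dex was 1.35 ± 0.42, or 2.56-fold (adjusted p = 0.0453, limma), and RGA-GR mock minus nontransgenic Dex was 1.27 ± 0.42 (adjusted p = 0.0782). That call passed in 9 of 24 other settings, in which the adjusted p ran from 0.0139 to 0.185. It was lost when any of 7 of the 9 arrays was left out, namely RGA-GR Dex replicates 2 and 3, all 3 RGA-GR mock arrays and nontransgenic Dex replicates 1 and 2, with adjusted p-values of 0.0571 to 0.185. In the 5 arrays with spike-in signal the difference was 1.63 (adjusted p = 0.125).

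The other nad1 probe sets ranged from -0.48 ± 1.03 (257329_at) to 0.83 ± 0.63 (257327_at) in RGA-GR Dex minus nontransgenic Dex, and none passed. Between RGA-GR Dex and RGA-GR mock, 257329_at had the lowest difference of all members at -1.57 ± 1.03 (adjusted p = 0.730, limma). It is a probe set with a low median ratio, 0.214, whose divisor is not known. Its ratio was 0.285, 0.124 and 0.148 in the RGA-GR Dex arrays, 0.806, 1.152 and 0.148 in the RGA-GR mock arrays and 0.406, 0.163 and 0.214 in the nontransgenic Dex arrays. Here the 2 mock arrays without spike-in signal were the high ones, the opposite of most members. Which stretch of the nad1 transcript each probe set reads was not used here.

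**Figure D4:**
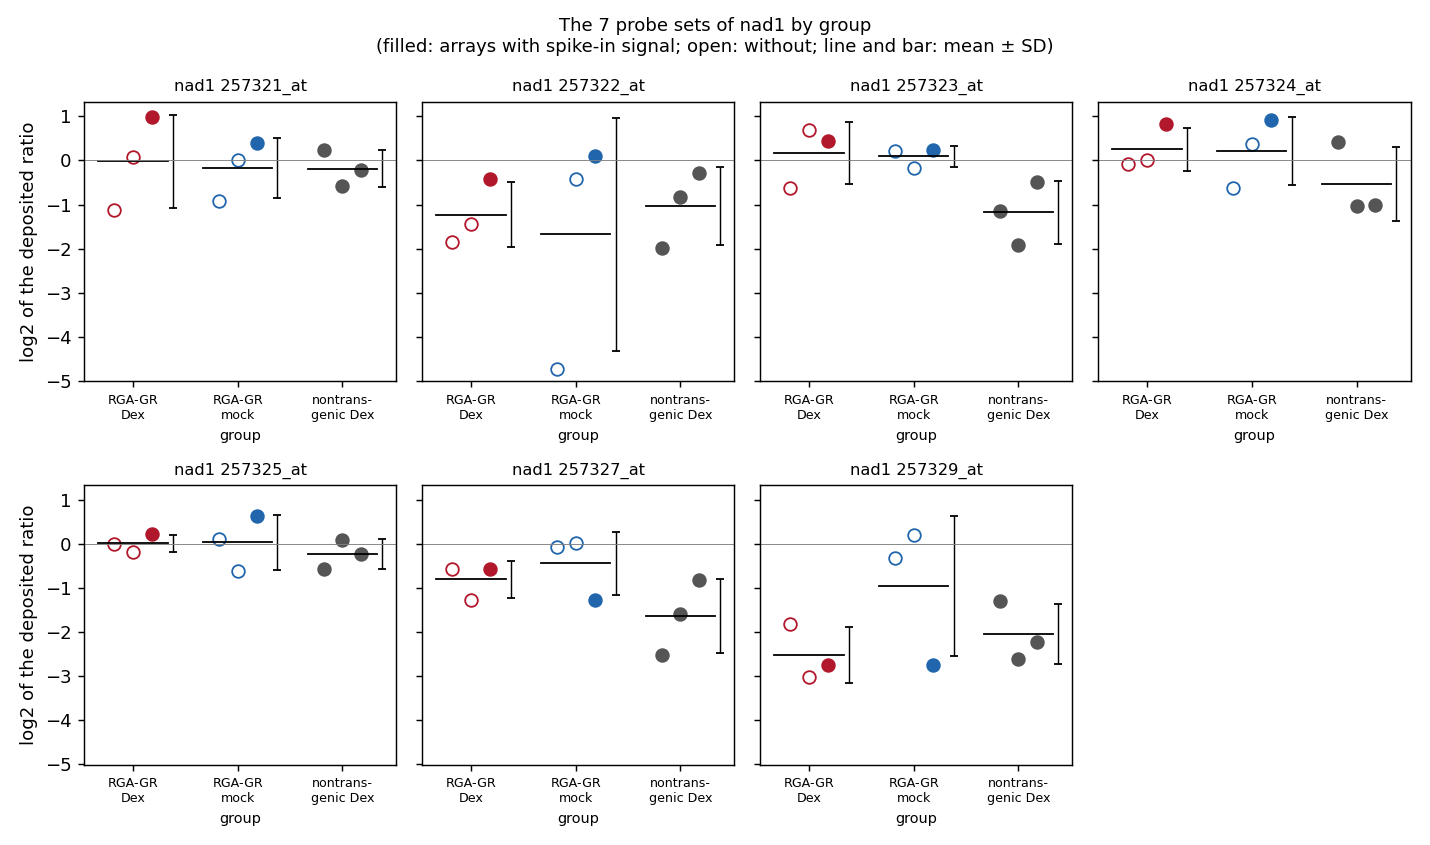
log2 of the deposited ratio (vertical axis) of the 7 nad1 probe sets in each group, with filled points for arrays with spike-in signal, open points for arrays without, and mean ± SD over 3 arrays. In 257323_at the mock arrays all lie above the nontransgenic ones, while in 257329_at the 2 open mock points stand at -0.31 and 0.20, above all other arrays.

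Of the complex IV genes, cox2 encodes the subunit that receives electrons from cytochrome c. Its ratio was 0.133, 0.707 and 1.753 in the RGA-GR Dex arrays, 0.212, 0.657 and 1.355 in the RGA-GR mock arrays and 1.393, 1.265 and 1.0 in the nontransgenic Dex arrays. The arrays without spike-in signal were all below the nontransgenic arrays, and the RGA-GR Dex array with it was above them. The difference of RGA-GR Dex from nontransgenic Dex was -1.14 ± 0.85 (adjusted p = 0.400, limma), and it passed with the replicate block confined to the RGA-GR line (adjusted p = 0.0258). RGA-GR Dex replicate 3 was 0.54 above the nontransgenic mean on the log2 scale. The low values thus came from the arrays without spike-in signal. For cox1, the catalytic subunit, chosen for description after its values were seen, ratios were 0.607, 1.188 and 2.627 in the RGA-GR Dex arrays, 0.463, 0.878 and 3.298 in the RGA-GR mock arrays and 1.0, 0.995 and 1.303 in the nontransgenic Dex arrays. Replicate 3 was the highest array in both transgenic groups, and the group means were close, with a difference of 0.18 ± 0.65 for RGA-GR Dex minus nontransgenic Dex.

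Among the cytochrome c maturation genes, ccb382 varied most between the 2 kinds of array. Its ratio was 0.0733, 0.253 and 1.641 in the RGA-GR Dex arrays, 0.0507, 0.152 and 1.193 in the RGA-GR mock arrays and 2.218, 1.0 and 1.347 in the nontransgenic Dex arrays. The 4 arrays without spike-in signal were far below the other 5, among which the groups overlapped. RGA-GR Dex minus nontransgenic Dex was -2.21 ± 1.27 (adjusted p = 0.262, limma), and RGA-GR mock minus nontransgenic Dex was -2.78 ± 1.27 (adjusted p = 0.191). Both passed with the replicate block confined to the RGA-GR line (adjusted p = 0.0223 and 0.0135, limma). Replicate 3 of both transgenic groups nevertheless lay within the nontransgenic range. On the log2 scale it was 0.19 from the nontransgenic mean for RGA-GR Dex and -0.27 for RGA-GR mock. The low values thus came from the arrays without spike-in signal.

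Its partner ccb203, which encodes the other part of the same protein, had ratios of 0.863, 0.879 and 1.49 in the RGA-GR Dex arrays, 0.303, 2.162 and 1.231 in the RGA-GR mock arrays and 1.18, 0.609 and 0.355 in the nontransgenic Dex arrays. The groups overlapped, and the 2 mock arrays without spike-in signal were the lowest and the highest of the 9. RGA-GR Dex minus nontransgenic Dex was 0.72 ± 0.64 (adjusted p = 0.490, limma). For ccb206, a membrane subunit of a transporter in cytochrome c maturation, RGA-GR mock minus nontransgenic Dex was -1.63 ± 0.53 (adjusted p = 0.0765), with ratios of 0.323, 0.384 and 0.574 in the mock arrays against 1.682, 1.231 and 1.009 in the nontransgenic Dex arrays. For ccb452 the difference of RGA-GR Dex from nontransgenic Dex was -0.07 ± 0.59.

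The maturase gene matR had ratios of 0.897, 0.999 and 2.123 in the RGA-GR Dex arrays, 0.5, 0.0827 and 1.093 in the RGA-GR mock arrays and 0.471, 0.162 and 0.355 in the nontransgenic Dex arrays. The RGA-GR Dex arrays were wholly above the nontransgenic arrays, with the mock arrays overlapping both. RGA-GR Dex minus nontransgenic Dex was 2.04 ± 0.90 (adjusted p = 0.140, limma) and RGA-GR Dex minus RGA-GR mock 1.80 ± 0.90 (adjusted p = 0.657), the highest member difference in each. The translocase gene orfX had ratios of 0.623, 0.594 and 2.391 in the RGA-GR Dex arrays, 0.465, 1.06 and 1.813 in the RGA-GR mock arrays and 1.0, 0.633 and 1.204 in the nontransgenic Dex arrays. Replicate 3 was again the highest array of both transgenic groups, and the difference of RGA-GR Dex from nontransgenic Dex was 0.07 ± 0.58.

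**Figure D5:**
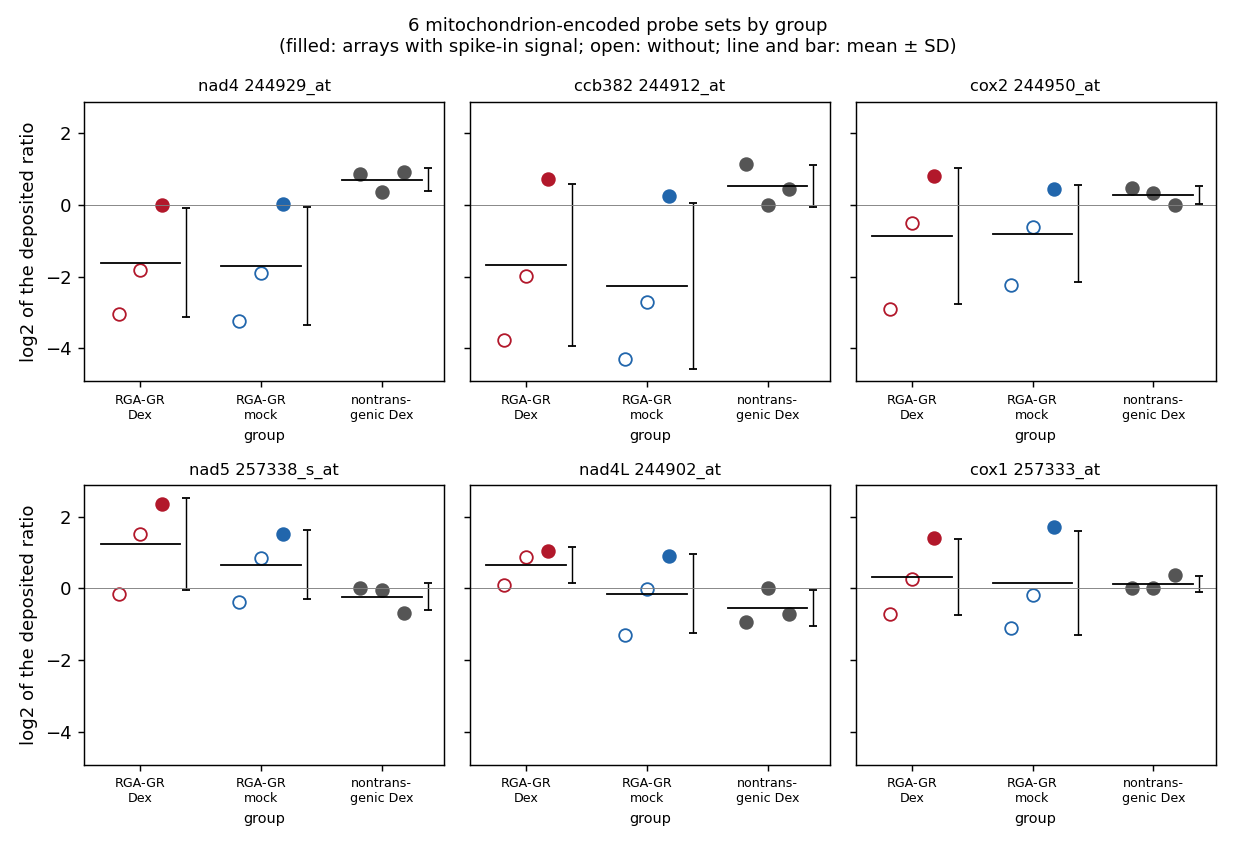
log2 of the deposited ratio (vertical axis) of 6 mitochondrion-encoded probe sets in each group, with filled points for arrays with spike-in signal, open points for arrays without, and mean ± SD over 3 arrays; the 6 were picked after their values were seen. For nad4 the filled RGA-GR points remain below the nontransgenic arrays, for ccb382 and cox2 they lie among or above them, and for nad5, nad4L and cox1 they lie above.

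Set against nontransgenic plants, the RGA-GR line thus gave different orders in the 2 kinds of array. All 4 RGA-GR arrays without spike-in signal were below all nontransgenic arrays in 6 of the 23 members (ccb382, nad4, ccb206, cox2, ccb452 and nad6), against 13.9% of all probe sets, and above them in 0, against 20.2%. With spike-in signal, RGA-GR Dex replicate 3 was above all nontransgenic arrays in 17 of 23 members, against 43.9% of all probe sets, and RGA-GR mock replicate 3 in 15 of 23, against 39.3%. The median over members of RGA-GR Dex replicate 3 minus the nontransgenic mean was 1.10, and that of RGA-GR mock replicate 3 was 0.86.

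Restricting limma to the 5 arrays with spike-in signal left 1 array in each transgenic group, whose spread is then assumed to equal that of the nontransgenic arrays. In that fit the members' differences for RGA-GR Dex minus nontransgenic Dex ran from -0.71 (nad1 257329_at) to 2.82 (matR), with a median of 1.10. Among them nad5 257338_s_at was at 2.60, nad5 257337_at at 2.21, nad4L at 1.59 and cox1 at 1.27. For RGA-GR mock minus nontransgenic Dex, 2 members passed, both higher, against 3.44%: nad5 257338_s_at by 1.75 (adjusted p = 0.0474) and cox1 by 1.60 (adjusted p = 0.0393). With all 9 arrays and spike-in signal as a block, 5 members passed in RGA-GR Dex minus nontransgenic Dex, all as higher. Of all probe sets 14.7% passed, with 2107 of the 22746 higher. The 5 members in limma were nad5 257338_s_at (2.46, adjusted p = 0.0198), ccb452 (1.21, adjusted p = 0.0204), nad4L (1.92, adjusted p = 0.0286), cox1 (1.52, adjusted p = 0.0304) and matR (3.24, adjusted p = 0.0451). For RGA-GR mock against nontransgenic Dex 0 members passed in limma with that block, against 5.94%. Between RGA-GR Dex and RGA-GR mock, 0 members passed with the block, in the 4 arrays without spike-in signal or in the 5 with it, against 0%, 0% and 0.264% of all probe sets.

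Nuclear genes for mitochondrial functions were measured by lists made for this description, and in none did a gene pass between RGA-GR Dex and RGA-GR mock. Of the subunits of the respiratory chain, 11 of 22 loci were measured by 12 probe sets, of which 1 passed as lower and 0 as higher in RGA-GR Dex minus nontransgenic Dex, against 6.65% and 12.1% of all probe sets. The median difference over the list was -0.35, against 0.14 over all probe sets. The one that passed was CYTC-2, a cytochrome c gene, with ratios of 0.717, 0.579 and 1.048 in the RGA-GR Dex arrays, 0.514, 0.682 and 1.0 in the RGA-GR mock arrays and 1.932, 2.132 and 1.656 in the nontransgenic Dex arrays. Both transgenic groups lay wholly below the nontransgenic one, and the difference was -1.32 ± 0.28 for RGA-GR Dex (adjusted p = 0.011, limma) and -1.43 for RGA-GR mock (adjusted p = 0.016). Its sister gene CYTC-1 gave 0.02 ± 0.18. For the other respiratory genes with the lowest p-values, differences of RGA-GR Dex from nontransgenic Dex were -0.67 ± 0.23 for SDH2-1 257713_at, a succinate dehydrogenase subunit, and 0.45 ± 0.19 for AT5G40810, and neither passed.

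Of the alternative respiration list, NDB2, an external NAD(P)H dehydrogenase that bypasses complex I, was the 1 of 5 measured genes to pass in the same comparison, where 18.7% of all probe sets passed, and it fell by 0.89 on the log2 scale (SE 0.26, adjusted p = 0.035, limma). It passed in 14 of 25 other settings. NDB1 and NDB3 gave 0.59 ± 0.21 and -1.61 ± 0.74 and did not pass. Of the mitochondrial stress response list, both measured genes passed as lower, against 6.65% of all probe sets: AT5G09570 fell by 2.09 on the log2 scale (SE 0.32, adjusted p = 0.0032) and AT2G21640 by 1.45 (SE 0.36, adjusted p = 0.018), which passed in 25 and 18 of 25 other settings. For AT5G09570 the ratio was 1.076, 0.493 and 0.525 in the RGA-GR Dex arrays, 1.0, 0.622 and 0.677 in the RGA-GR mock arrays and 2.676, 3.624 and 2.237 in the nontransgenic Dex arrays. Its transgenic arrays of both treatments were all below the nontransgenic ones, whichever kind of array they belonged to. No measured gene passed in the same comparison among ATP synthase subunits (2 of 9 loci), oxidase assembly and cytochrome c maturation factors (2 of 6), organelle RNA polymerases (1 of 3) or splicing and processing factors (3 of 8), and 0 of 7 loci of the import and prohibitin list were measured.

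Markers of floral cells rich in mitochondria moved between the same groups. Of 5 late pollen genes, 4 passed as lower and 0 as higher in RGA-GR Dex minus nontransgenic Dex, against 6.65% and 12.1% of all probe sets, and their summarised level, the median log2 ratio over the list, was 0, -3.25 and -1.63 in the RGA-GR Dex arrays, 0.42, -0.89 and -1.06 in the RGA-GR mock arrays and 1.14, 1.30 and 0.88 in the nontransgenic Dex arrays. In the same comparison the tapetum gene SHT, 1 of 4 loci measured, fell by 2.01 on the log2 scale (SE 0.29, adjusted p = 0.0029, limma). Both nuclear photosynthesis genes, RCA and LHCB4.1, passed as higher, by 1.17 ± 0.26 and 0.70 ± 0.21 (adjusted p = 0.012 and 0.037), against 12.1% of all probe sets. RCA kept that call in 24 of 25 other settings and LHCB4.1 in 12 of 25. The part of these cell types in the mitochondrial values was not tested.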

How the data were processed

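Total RNA was hybridised to 9 Affymetrix arrays, 3 per group. The deposited value table holds linear ratios, each probe set scaled across the arrays, and the submitters' processing notes name GCOS. The divisor, inferred from the values, was the median for 66.2% of probe sets and is not known for the other 33.8%, so a ratio compares arrays and not genes. The table holds 22810 probe sets, of which 64 controls were left out. Genes were named from the platform's probe table, and 8730 probe sets have no gene there. Because that table's mitochondrial gene IDs are not in the RefSeq gene table (0 of 23 matched), genes were matched by symbol or synonym. Sequences of the genes were not used here.

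log2 ratios, computed from the deposited ratios with no offset and no filter on low values, were fitted with limma 3.58.1 (lmFit, and eBayes with trend) in R 4.3.3 over all 9 arrays, leaving 6 residual degrees of freedom. A filter on ratios would admit a probe set through the group in which it is high, and 18 of the 23 members pass one at the 40th percentile. Those that do not are nad2, nad7 and the nad1 probe sets 257322_at, 257327_at and 257329_at. The fit was tested on simulated data. The number of arrays limits the precision. Members and lists were chosen with earlier results of these data known, and 3 loci entered wrongly in 2 of the nuclear lists were removed after values had been seen, leaving 84. The genes named were nad4L, ccb382, ccb203, the member of each role with the largest difference between RGA-GR Dex and nontransgenic Dex, and up to 3 genes per nuclear list with the lowest p there. Others were chosen after their values were seen. Figures were drawn with matplotlib 3.10.9. Alternatives covered scaling, offset, filters, variance settings, blocks by replicate and by spike-in signal, and leaving out arrays.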

Additional observations from a re-analysis of the deposited data

How the results depend on the processing

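Of 1691 alternative values of single genes, 1632 kept their side of the threshold, 15 calls were lost, 43 were gained and 1 turned: ccb452, at -0.07 in RGA-GR Dex minus nontransgenic Dex, became 1.21 (adjusted p = 0.0204) with spike-in signal as a block. Among the uncalled values, 140 changed sign. Of 210 alternatives of the counts and medians, 161 kept within 1.5 times or 1 SD.

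For RGA-GR Dex minus RGA-GR mock, the 0 calls over all probe sets became 3 with eBayes without trend, 4 with the replicate block confined to the transgenic line, 60 in the 5 arrays with spike-in signal and 3 without replicate 1 of both transgenic groups, and ran from 0 to 57 (without RGA-GR Dex replicate 1) when single arrays were left out; members called stayed at 0. For RGA-GR Dex minus nontransgenic Dex, the 4256 calls became 2586 after quantile normalization, 2634 in the 5 arrays and 2737 with a fold of at least 2, and the lowest count with an array left out was 1642 (without RGA-GR Dex replicate 2; highest 4511), with 2468, 2612 and 2740 without nontransgenic Dex replicates 1, 2 and 3. The 1 member called became 0 after quantile normalization, with array medians subtracted, with probe sets of median 1 alone, and with eBayes without trend or with trend and robust. It became 3 with only the 6 arrays compared, 5 with spike-in signal as a block, 4 in the 5 arrays and 4 without replicate 1 of both transgenic groups, and ran from 0 (without RGA-GR Dex replicate 2, RGA-GR mock replicate 3 or nontransgenic Dex replicate 1 or 2) to 2 (without RGA-GR Dex replicate 1). The members' median of 0.25 became 0.96 with spike-in signal as a block and 1.10 in the 5 arrays. For RGA-GR mock minus nontransgenic Dex, the 2325 calls became 1058 after quantile normalization, 1067 with eBayes without trend, 1442 with only the 6 arrays compared, 1350 with spike-in signal as a block and 783 in the 5 arrays, and were 118 and 1356 without RGA-GR mock replicates 2 and 1, and 969, 858 and 1203 without nontransgenic Dex replicates 1, 2 and 3 (highest 2477). The 0 members called became 1 with only the 6 arrays, 2 in the 5 arrays, 3 without replicate 3 and 2 without replicate 1 of both transgenic groups, and ran from 0 to 2 with single arrays left out (2 without RGA-GR Dex replicate 1, 1 without RGA-GR mock replicate 3). The alternatives that leave out 1 replicate number of both transgenic groups were chosen after seeing the data. The cause of these changes was not tested.

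With array medians subtracted, 43.8% of calls in RGA-GR Dex minus nontransgenic Dex were higher (of 3705), against 64.5%, and 54.8% after quantile normalization; for RGA-GR mock minus nontransgenic Dex the shares were 39.9% (of 2085), against 60.8%.

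The main fit did not pair arrays by replicate number. The same-numbered correlations given above, all positive, rose to 0.332, 0.118 and 0.325 after the filter at the 40th percentile. A replicate block over all 9 arrays called 3 members in RGA-GR Dex minus nontransgenic Dex and 1 in RGA-GR mock minus nontransgenic Dex. Of all 22746 probe sets it called 4775 and 2796. In the RGA-GR line, replicate 3 holds the arrays with spike-in signal. With the replicate block confined to that line, 6 members and 6235 of all probe sets passed in RGA-GR Dex minus nontransgenic Dex. That block leaves the differences between RGA-GR replicates out of the spread, so its p-values against nontransgenic Dex are too small. Lower were nad4, ccb382 and cox2, and higher were nad5 257338_s_at, nad4L and nad1 257323_at (adjusted p = 0.0445). RGA-GR Dex replicate 3 was nonetheless within the nontransgenic range for ccb382 and above it for cox2. In RGA-GR mock minus nontransgenic Dex, 5 members and 4542 of all probe sets passed. Lower were nad4, ccb382, ccb206 (0.0203) and cox2 (0.0418), and nad5 257338_s_at (0.0252) was higher. RGA-GR mock replicate 3 was nonetheless within the nontransgenic range for ccb382 and cox2.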
